A study of Mus musculus with 21 samples.

Results

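The MHC class II pathway genes were taken as 10 named rows of a mouse RNA-seq count table: H2-Aa, H2-Ab1, H2-Eb1, Cd74, Ciita, H2-DMa, H2-DMb1, H2-DMb2, H2-Oa and H2-Ob. All 10 are among the table's 30733 genes, and each was followed through every library. They were chosen by name and not by a measured value. The libraries came from sorted bone marrow cells of mice labelled Stag2 knockout (KO) or Stag2 wild type (WT). Stag2 is a subunit of cohesin, the ring that holds chromatin loops. LSK cells (stem and multipotent progenitor cells) gave 3 KO and 4 WT libraries, GMP (granulocyte and monocyte progenitors) gave 4 KO and 3 WT, and CFU-E (erythroid progenitors) gave 4 KO and 3 WT. Cells with lineage markers were removed from all marrow, KO and WT alike, ahead of sorting. Strain, age, the way Stag2 was deleted and any treatment were not given in the sources at hand. The LSK kit reads whole transcripts and the kit of the other populations only 3′ ends, so levels were compared only within a kit. In bulk libraries such as these, fewer cells of a type and less RNA per cell cannot be told apart.

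MHC class II molecules are pairs of an alpha and a beta chain that carry peptides from the endosome to the cell surface, where CD4+ T cells read them. H2-Aa with H2-Ab1 forms the mouse molecule I-A, and H2-Eb1 is the beta chain of I-E. Cd74, the invariant chain, fills the groove of new class II molecules and steers them to the endosome. There H2-DM, made of H2-DMa with H2-DMb1 or H2-DMb2, helps to swap the last piece of Cd74 for a peptide, and H2-DO, made of H2-Oa with H2-Ob, restrains H2-DM. Ciita is the coactivator that switches class II promoters on. It does not bind DNA itself but docks on RFX, CREB and NF-Y proteins, which sit on promoter elements called the X and Y boxes. In the marrow, B cells, dendritic cells and macrophages are the classical high expressers.

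In the RefSeq annotation, 8 of the members lie on chromosome 17 within a run of 13 protein-coding genes, from H2-Oa to H2-Eb1. The other 5 genes of that run are Brd2, Psmb9, Tap1, Psmb8 and Tap2. Ciita and Cd74 lie on other chromosomes. RefSeq promoter windows were at hand for 7 of the 10 members; H2-Ab1, Cd74 and Ciita were not among them. In 6 of the 7 the window held the Y box core, TGATTGG on either strand, against 7.23% of 32851 windows. Stretches of 60 bases around it are shown because these letters are where the shared control described above would act, and because the stretches show how alike the H2-DMb1 and H2-DMb2 promoters are. They are from RefSeq, build GRCm38.p6, 5′ to 3′ on each gene's strand, and lie upstream of the start of transcription. Capitals mark the Y box core, an X box stretch (AAC, 2 free bases, ATGATG) or a cyclic AMP response element (TGACGTCA).
H2-Oa, chr17:34092289-34092348, plus strand: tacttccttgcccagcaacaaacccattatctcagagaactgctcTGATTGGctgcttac
H2-DMb2, chr17:34145112-34145171, plus strand: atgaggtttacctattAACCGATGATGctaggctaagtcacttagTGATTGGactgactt
H2-DMb1, chr17:34153083-34153142, plus strand: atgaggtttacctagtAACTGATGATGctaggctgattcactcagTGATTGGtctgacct
H2-Ob, chr17:34238801-34238860, plus strand: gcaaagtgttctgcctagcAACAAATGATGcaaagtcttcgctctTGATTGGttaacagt
H2-Aa, chr17:34287859-34287918, minus strand: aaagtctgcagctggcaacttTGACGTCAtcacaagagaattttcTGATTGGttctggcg
H2-Eb1, chr17:34305761-34305820, plus strand: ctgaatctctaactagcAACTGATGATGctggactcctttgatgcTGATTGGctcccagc

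The X box stretch, whose letters were chosen after these promoters were read, stood in the windows of H2-DMb1, H2-DMb2, H2-Ob and H2-Eb1, against 0.119% of all windows on either strand. Between it and the Y box core lay 18 bases in H2-DMb1 and in H2-DMb2, 17 in H2-Eb1 and 15 in H2-Ob. The H2-Aa window did not match the chosen X box letters, which does not show that it lacks an X box. It held the cyclic AMP response element, 16 bases before its Y box core, and 1.55% of all windows held that element. A match of letters is a description and shows no binding.

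Library totals were 22813333 to 32196233 counts in LSK, 1250683 to 4401993 in GMP and 3654667 to 5550165 in CFU-E. Levels are given as CPM, a gene's counts relative to the total of its library, scaled by TMM factors. The labelled populations showed their own markers. The summed level of 8 GMP markers was 21830 to 54370 CPM in GMP and 29.98 to 146.5 in CFU-E. That of 8 CFU-E markers was 5676 to 7682 in CFU-E and 173.8 to 249.1 in GMP, and that of 10 stem cell markers was 2045 to 2997 in LSK. Stag2 itself had 67.73 to 79.81 CPM in LSK KO against 147.8 to 186.8 in LSK WT, and 41.17 to 75.60 in CFU-E KO against 124.8 to 159.3 in CFU-E WT. In GMP it had 80.52 to 149.3 CPM in KO against 97.92 to 199.7 in WT. These ranges overlap, and the library labelled KO 4 was the highest of the KO libraries. The position of the deletion relative to the counted 3′ end is not stated, so the Stag2 count does not settle the GMP labels, and GMP libraries are named here as labelled.

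Class II genes were well covered in LSK, and their levels differed between libraries of the same genotype. The 10 members summed to 1242 to 5872 CPM over the WT libraries and to 1226 to 3432 over the KO libraries. WT 1 and KO 1 were low together: 1 of these 2 was the lowest of the 7 libraries for each of the 10 members, WT 1 for 6 and KO 1 for 4. WT 4 was the highest for 8. The fitted log2 fold change of KO against WT was negative for all 10 members, with a median of -0.71, but none passed the test (edgeR quasi-likelihood F test, adjusted p from 0.45 to 0.904). At an unadjusted p under 0.05 there were 3 of the 10, and DESeq2 called 1 and limma-voom 0. Of all 17664 genes tested, 0.0793% passed, 7.88% had an unadjusted p under 0.05, 49.4% had a negative value and the median was 0.00. Over all genes, DESeq2 called 338 of 30125 and limma-voom 22 of 17664.

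Of the classical chains, H2-Aa was measured at 135.6, 631.2, 463.9 and 904.4 CPM in LSK WT 1 to 4 and at 161.7, 258.7 and 237.5 in KO 1 to 3. WT 1 lay below all KO libraries and the other WT libraries lay above them, so the groups overlapped. The log2 fold change was -1.28 ± 0.523 (SE, 95% interval -2.47 to -0.10, unadjusted p = 0.0371, adjusted p = 0.592 by edgeR).
H2-Ab1, the partner chain, was at 293.6, 1090, 968.2 and 1552 CPM in WT and at 307.6, 588.6 and 527.2 in KO. The order of the 7 libraries was that of H2-Aa, with WT 1 again below every KO library. Its log2 fold change was -1.04 ± 0.482 (adjusted p = 0.67 by edgeR).
H2-Eb1 was at 90.42, 310.5, 303.6 and 462.1 CPM in WT and at 92.94, 194.7 and 170.9 in KO, which is the same arrangement at a lower level. Its log2 fold change was -0.93 ± 0.479 (adjusted p = 0.729 by edgeR). The chains kept close proportions: the count of H2-Ab1 was 1.72 to 2.28 times that of H2-Aa over the 7 libraries, although the level of H2-Aa itself differed 6.67-fold between the lowest and the highest.

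Cd74 was the most abundant member in LSK, also per length. Its level was 437.2, 1909, 2523 and 2443 CPM in WT and 391.7, 2043 and 1078 in KO. KO 2 lay above WT 2 here, which it did for none of the classical chains. The log2 fold change was -0.64 ± 0.643 (95% interval -2.10 to 0.82, adjusted p = 0.886 by edgeR). Cd74 was less tied to H2-Ab1 than the chains were to each other, with a count ratio from 1.27 in KO 1 to 3.47 in KO 2. KO 2 was also the library with the highest share of immunoglobulin reads.

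Divided by the merged exon length of GENCODE M21, mean Cd74 was 1089 ± 575 CPM per kb in LSK WT (SD, n = 4) and 697.4 ± 494 in KO (n = 3). H2-Ab1 followed at 380.1 ± 202 and 184.8 ± 57.6 CPM per kb. H2-Eb1 at 150.1 ± 78.7 and H2-Aa at 140.5 ± 84.8 in WT did not differ beyond their spread. H2-DMa (51.36 ± 4.35) and H2-DMb1 (47.54 ± 16.7) came next and likewise overlapped, above H2-Oa (19.43 ± 6.86), H2-Ob (14.18 ± 5.56) and H2-DMb2 (12.4 ± 6.41), whose spreads overlap too. Ciita was lowest at 3.29 ± 1.33 CPM per kb. The counting used another annotation, so these per-length levels are approximate.

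**Figure D1:**
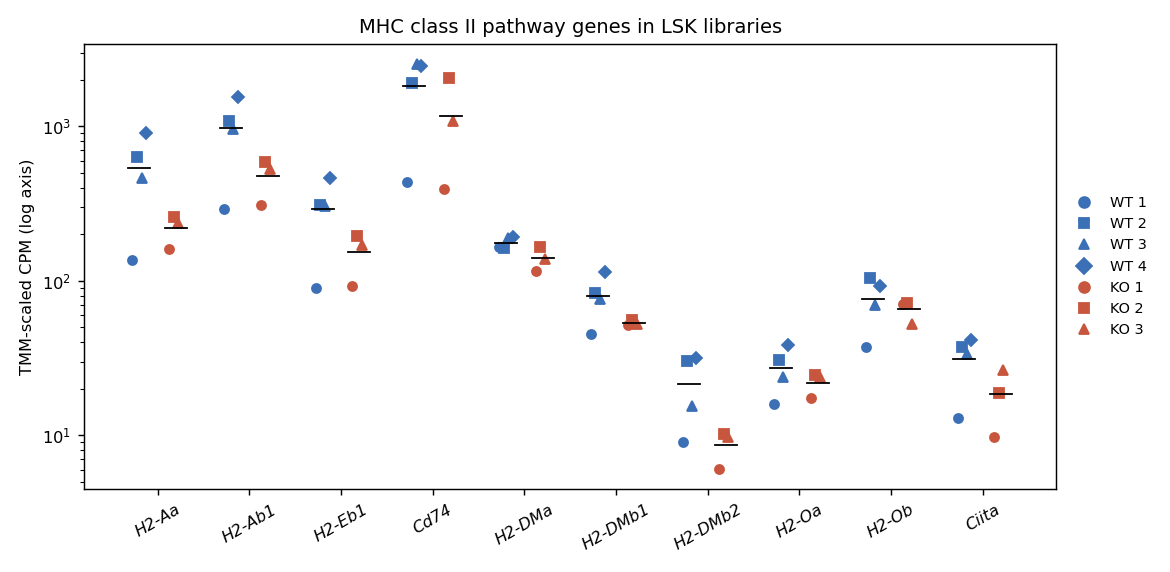
TMM-scaled CPM (log axis) of the 10 members in each LSK library, WT in blue and KO in red, with a marker shape per replicate number and a black line at the group's mean. The circles, WT 1 and KO 1, sit lowest or near the lowest for most genes, so that H2-Aa in WT 1 (135.6 CPM) lies below all KO libraries.

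Among the genes for H2-DM, the peptide exchange factor, the spread over libraries differed from member to member. H2-DMa was the steadiest of the 10, at 164.5, 163.9, 188.5 and 191.6 CPM in LSK WT and 115.6, 165.5 and 138.9 in KO, a 1.66-fold range over the 7 libraries. WT 1 was not low for it, and KO 2 alone reached into the WT range. Its log2 fold change was -0.34 ± 0.146 (unadjusted p = 0.0459, adjusted p = 0.62 by edgeR).
H2-DMb1 was at 45.37, 84.00, 76.76 and 113.5 CPM in WT and within 51.91 to 55.68 in KO. The KO libraries lay close together, above WT 1 and below the other WT libraries. Its log2 fold change was -0.58 ± 0.261 (adjusted p = 0.647 by edgeR).
H2-DMb2 was at 9.120, 30.15, 15.44 and 31.91 CPM in WT and at 6.048, 10.15 and 9.820 in KO. Only WT 1 reached into the KO range. It had the most negative value of the members, a log2 fold change of -1.32 ± 0.434 (95% interval -2.31 to -0.33, unadjusted p = 0.0144, adjusted p = 0.45 by edgeR). With DESeq2 in place of edgeR it passed, at -1.31 and an adjusted p of 0.0465, as the only member that did.

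The ratio of the beta chain genes' counts differed between the LSK groups, although both genes had a negative value there. The count of H2-DMb1 was 2.79 to 4.97 times that of H2-DMb2 in LSK WT and 5.37 to 8.58 times in LSK KO, without overlap. In GMP it was 13 to 24.4 times in WT and 6.27 to 22.2 times in KO, with overlap. This ratio was chosen after the values were seen and was not tested. The 2 genes are close copies: 22.7% of the 50-base words in H2-DMb1 transcripts and 21.2% of those in H2-DMb2 are shared with the other, while no other member shares any with another. The sources at hand do not say how reads that fit both were counted, so the split between them is uncertain.

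For H2-DO, the restraint on H2-DM, the values of KO and WT were closest. H2-Oa was at 15.99, 30.90, 23.90 and 38.57 CPM in LSK WT and 17.37, 24.63 and 23.89 in KO, with a log2 fold change of -0.32 ± 0.286 (adjusted p = 0.886 by edgeR). H2-Ob was at 37.20, 105.0, 69.74 and 93.15 CPM in WT and 71.24, 72.44 and 52.41 in KO, with -0.22 ± 0.314 (adjusted p = 0.904 by edgeR). KO 1, low for the classical chains, was not low for H2-Ob. With WT 2 and WT 4 left out together, both had a positive value, 0.15 for H2-Oa and 0.30 for H2-Ob.

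Ciita, the coactivator, was at 12.90, 37.48, 33.60 and 41.51 CPM in LSK WT and at 9.813, 18.89 and 26.50 in KO. WT 1 and KO 1 were the lowest, as for the chains it switches on, and otherwise the KO libraries lay below the WT ones. The log2 fold change was -0.77 ± 0.432 (adjusted p = 0.777 by edgeR).

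No member's value turned positive when any single library was left out, but whether a member passed depended on single libraries. WT 1 lay below the highest KO library for all 10 members. Over all genes tested, every KO library lay below every WT library for 4.63%, and for none of the members. Without WT 1, H2-Aa passed, at -1.61 (adjusted p = 0.0461 by edgeR), as the only member, and the count of all genes called went from 14 to 123. Without WT 1 and KO 1, chosen after seeing the data, none passed, and the median was -0.74. The numbers in the library descriptions, of which no meaning is given, start with the same 3 digits for WT 1 and KO 1, and with another 3 for WT 2, KO 2 and KO 3. WT 3 and WT 4 share yet another start, which no KO library has. Within the first pair the 10 members summed to 1242 CPM in WT 1 and 1226 in KO 1. Within the second set they summed to 4392 CPM in WT 2, 3432 in KO 2 and 2318 in KO 3. Cd74, the most abundant member, weighs most in these sums. With this number as a term in the fit the median of the members was -0.36 in place of -0.71. In that fit WT 3 and WT 4 do not inform the KO effect, which rests on WT 1 and WT 2 as the WT libraries. Without WT 2 and WT 4, and without the term, the median was -0.34.

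**Figure D2:**
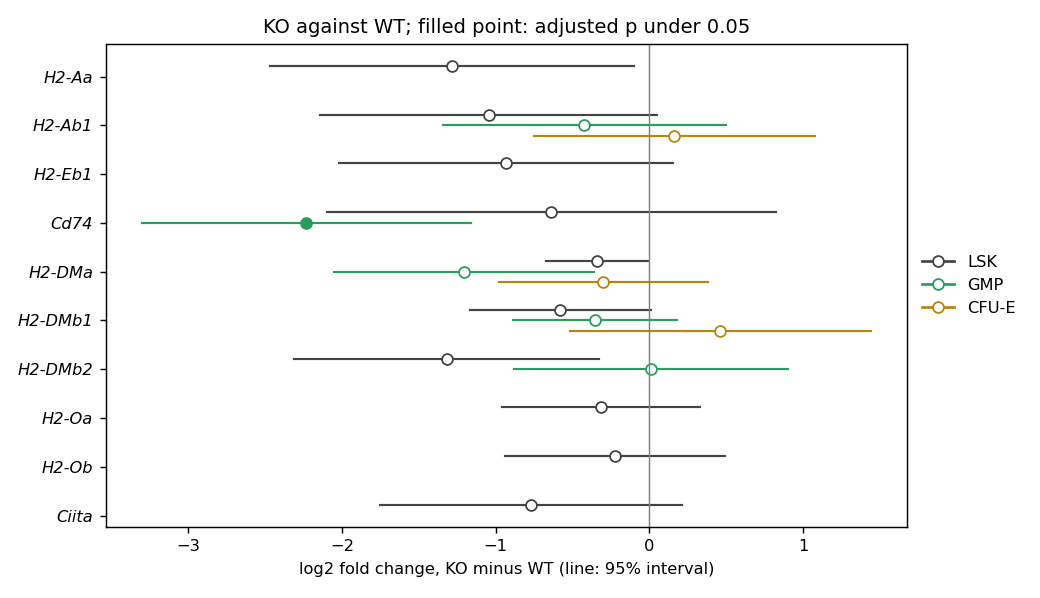
Log2 fold change of KO against WT (x axis) with its 95% interval for each member tested in LSK, GMP and CFU-E; a filled point passed the adjusted threshold of 0.05. Only Cd74 in GMP is filled; all 10 LSK points lie to the left of 0, and 7 of their intervals reach past it.

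Summed markers of the classical class II expressers were also lowest in LSK WT 1 and KO 1. The 10 members summed to 1242, 4392, 4667 and 5872 CPM in WT 1 to 4 and to 1226, 3432 and 2318 in KO 1 to 3. The summed level of 16 dendritic cell markers was 512.1, 1026, 1092 and 1163 CPM in WT and 464.2, 901.6 and 621.9 in KO. Irf8, a transcription factor of dendritic cells and monocytes, was at 115.4, 270.0, 364.1 and 403.5 CPM in WT and at 76.55, 220.9 and 139.5 in KO (log2 fold change -0.99 ± 0.457, adjusted p = 0.671 by edgeR). Flt3, a receptor of dendritic cells and also of multipotent progenitors, was at 176.3 to 252.9 CPM in WT and 116.2 to 141.8 in KO, without overlap (-0.76 ± 0.165, adjusted p = 0.206 by edgeR). Tcf4, a factor of plasmacytoid dendritic cells, was at 83.14 to 109.2 CPM in WT and 111.7 to 148.8 in KO, higher without overlap (0.41 ± 0.151, adjusted p = 0.522 by edgeR). Of the 16 markers, 12 had a negative value, with a median of -0.78, and none passed (7 at an unadjusted p under 0.05, 2 called by DESeq2).

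The summed level of 19 monocyte and macrophage markers was 658.1 to 2701 CPM in LSK WT and 583.3 to 1022 in KO, and 18 of the 19 had a negative value (median -1.19, none passed, 12 at an unadjusted p under 0.05, 7 called by DESeq2). Lyz2, a lysozyme of myeloid cells, led the list at 294.9 to 1687 CPM in WT and 314.7 to 467.9 in KO. F13a1, a coagulation factor chain made by monocytes, was at 109.1 to 181.2 CPM in WT and 41.59 to 98.86 in KO (-1.19 ± 0.295, adjusted p = 0.268 by edgeR). The 15 markers of mature B and plasma cells summed to 844.2, 2824, 4471 and 3295 CPM in WT and to 1451, 5174 and 1654 in KO, with WT 1 lowest and KO 2 highest. Igj, the joining chain of secreted antibodies, was the most abundant of them. Immunoglobulin rows took 0.489% of the counts in WT 1 and 9.59% in KO 2. Of these 15 markers 11 had a negative value (median -1.73, none passed, 8 at an unadjusted p under 0.05, 8 called by DESeq2). Of 12 markers of T, NK and innate lymphoid cells 11 had a negative value (median -0.58, none passed, 3 at an unadjusted p under 0.05, 1 called by DESeq2). None of the markers in these lists was at 0 in all libraries of a group in LSK. Over all genes in LSK, 7.88% had an unadjusted p under 0.05 by edgeR, and DESeq2 called 338 of 30125. The part of these marker lists in the class II values was not tested.

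**Figure D3:**
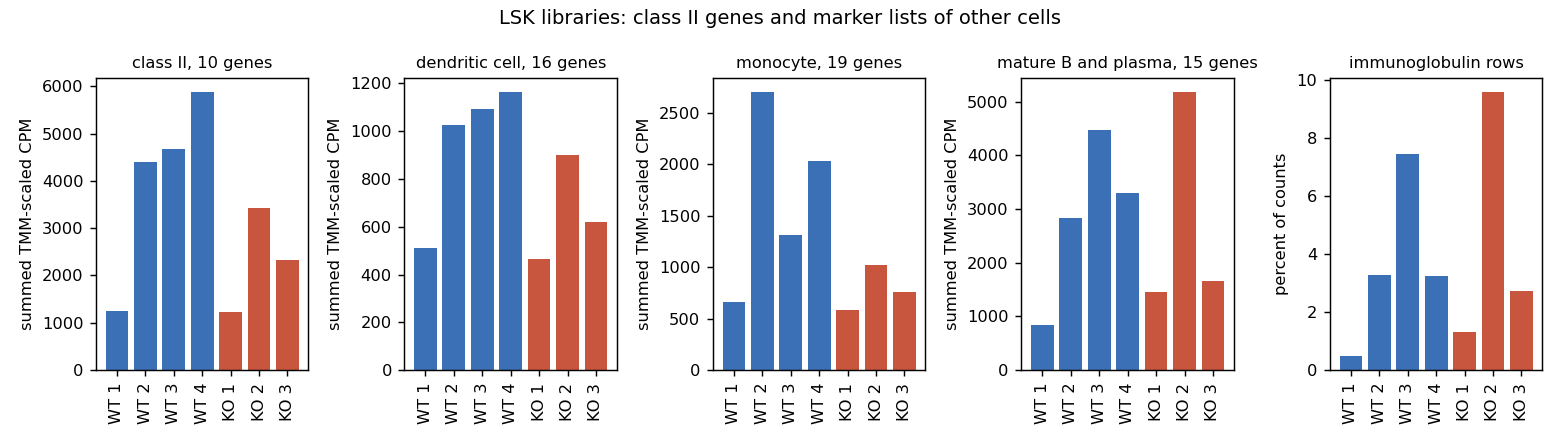
Bars give, for each LSK library, the summed TMM-scaled CPM of the 10 class II members and of 3 marker lists, and the percent of counts in immunoglobulin rows; WT in blue, KO in red, axes from 0. WT 1 and KO 1 are the lowest bars for the class II members (1242 and 1226 CPM) and for dendritic cell markers, while KO 2 is the highest for B and plasma cell markers and immunoglobulin.

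Genes whose LSK pattern was most like the mean of the 3 classical chains and Cd74 were sought by the root mean square difference of centred log2(CPM + 1) over the 7 libraries, among 11326 genes. The nearest was Mpeg1, a pore-forming protein of macrophages, at 0.163, then Kmo at 0.173, Cxcr3 at 0.204, Gcet2 at 0.215, Cst3 at 0.238, F10 at 0.24, and Naaa and Gpr35 at 0.247. A gene known by a clone name stood among them and was counted only. For scale, the members themselves were at 0.092 (H2-Eb1), 0.107 (H2-Ab1), 0.223 (H2-Aa) and 0.361 (Cd74), which are part of the mean, and at 0.329 (Ciita), 0.406 (H2-DMb2), 0.528 (H2-DMb1), 0.547 (H2-Oa), 0.636 (H2-Ob) and 0.744 (H2-DMa), which are not. Outside the classical chains, Ciita lay closest to them and H2-DMa farthest.

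The rest of the pathway was described from lists. Of 15 factors of class II transcription in LSK, 4 had a negative value and 11 a positive one, the median was 0.07 and none passed, nor had an unadjusted p under 0.05. The smallest p belonged to Irf8, given above. Of 13 genes of antigen processing and class II turnover, 11 had a negative value, the median was -0.24 and none passed (3 at an unadjusted p under 0.05, 1 called by DESeq2). Ctsh, an endosomal protease, was at 16.35, 86.5, 48.35 and 80.32 CPM in WT and at 14.73, 21.51 and 18.21 in KO (-1.67, 95% interval -2.79 to -0.55, unadjusted p = 0.00829, adjusted p = 0.379 by edgeR). Cd86, a costimulatory ligand of antigen-presenting cells, was at 5.993 to 31.54 CPM in WT and 6.789 to 9.882 in KO (-1.14 ± 0.482, adjusted p = 0.616 by edgeR). Both again had WT 1 lowest among the WT libraries.
The values of class I genes and of the other genes of the class II region were closer to 0. Of 12 tested, 4 had a negative value, the median was 0.03 and the values ran from -0.10 to 0.25 (adjusted p at least 0.867 by edgeR, none at an unadjusted p under 0.05). H2-K1, a class I heavy chain, was at 1672 to 1895 CPM in WT and 1799 to 2346 in KO (0.19 ± 0.147). Tap1, the peptide transporter of class I loading that lies between H2-DMb1 and H2-Ob, was at 205.8 to 332.1 CPM in WT and 239.5 to 411.9 in KO (0.25 ± 0.218). Of other class II chains, H2-Eb2 was at most 1.541 CPM in any LSK library (-0.64, adjusted p = 0.886 by edgeR), and H2-Ea-ps was too low to test.

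In GMP 5 of the 10 members had too few counts to test, and H2-DMb1 had the highest counts of the rest. Cd74 fell: it was counted 30, 43 and 41 times in GMP WT 1 to 3 and 0, 12, 10 and 3 times in KO 1 to 4. That is 7.0, 12.31 and 10.82 CPM in WT and 0, 3.359, 2.896 and 1.009 in KO, and every KO library lay below every WT library. The fitted log2 fold change was -2.23 ± 0.504 (SE), a 4.70-fold lower level, with an adjusted p of 0.0393 by edgeR. Cd74 was the one member called of the 5 that had enough counts to test; over all 9969 genes 1.45% were called, 1% as lower, and 8.55% had every KO library below every WT library.

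The counts behind this call are small. Summed over libraries, without TMM scaling, Cd74 was at 9.28 CPM in WT (exact Poisson 95% interval 7.65 to 11.1) and 2.29 in KO (1.48 to 3.39), intervals that cover counting error only. The library labelled KO 1 had 1250683 counts in all, so its count of 0 allows up to 2.4 CPM. The value stayed between -2.62 and -1.96 when any one library was left out. The call ended without WT 2 (adjusted p = 0.236 by edgeR), WT 3 (0.215), KO 1 (0.0574) or KO 3 (0.0575), and remained without WT 1, KO 2 or KO 4 (0.0268 to 0.0454). Without both KO 1 and KO 4 it was -1.65 (adjusted p = 0.0894 by edgeR). When all libraries were thinned to the depth of KO 1, Cd74 no longer had the counts to be tested.

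H2-DMa was at 14.23, 22.90 and 40.91 CPM in GMP WT and at 17.75, 12.32, 12.16 and 4.372 in KO. KO 1 overlapped with WT 1 and the other KO libraries lay below. Its log2 fold change was -1.20 ± 0.400 (unadjusted p = 0.0083, adjusted p = 0.149 by edgeR).
H2-DMb1 was the most abundant member in the GMP counts, at 73.96, 96.47 and 129.1 CPM in WT and 69.54, 101.6, 83.71 and 56.50 in KO. The groups overlapped, and the log2 fold change was -0.35 ± 0.253 (adjusted p = 0.464 by edgeR).
H2-DMb2, at 5.133 to 7.443 CPM in WT and 3.765 to 11.10 in KO, had a value of 0.01 ± 0.42 (adjusted p = 0.992 by edgeR). H2-Ab1, at 6.300 to 15.04 CPM in WT and 2.354 to 11.30 in KO, had -0.42 ± 0.434 (adjusted p = 0.615 by edgeR). Its partner H2-Aa was counted 10, 28 and 11 times in WT and 0, 11, 4 and 1 times in KO, too few for the test. H2-Eb1 was counted 2, 19 and 24 times in WT and 0, 6, 3 and 1 times in KO.
Ciita had 7 counts over the WT libraries and 2 over the KO libraries, H2-Oa 21 and 33, and H2-Ob 10 and 9. With no filter on low counts, 3 members passed: Cd74 (-2.25, adjusted p = 0.000123 by edgeR), H2-DMa (-1.23, 0.00475) and H2-Eb1 (-2.22, 0.0323), against -1.70 (0.0959) for H2-Aa. That fit called 601 genes in place of 145.

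**Figure D4:**
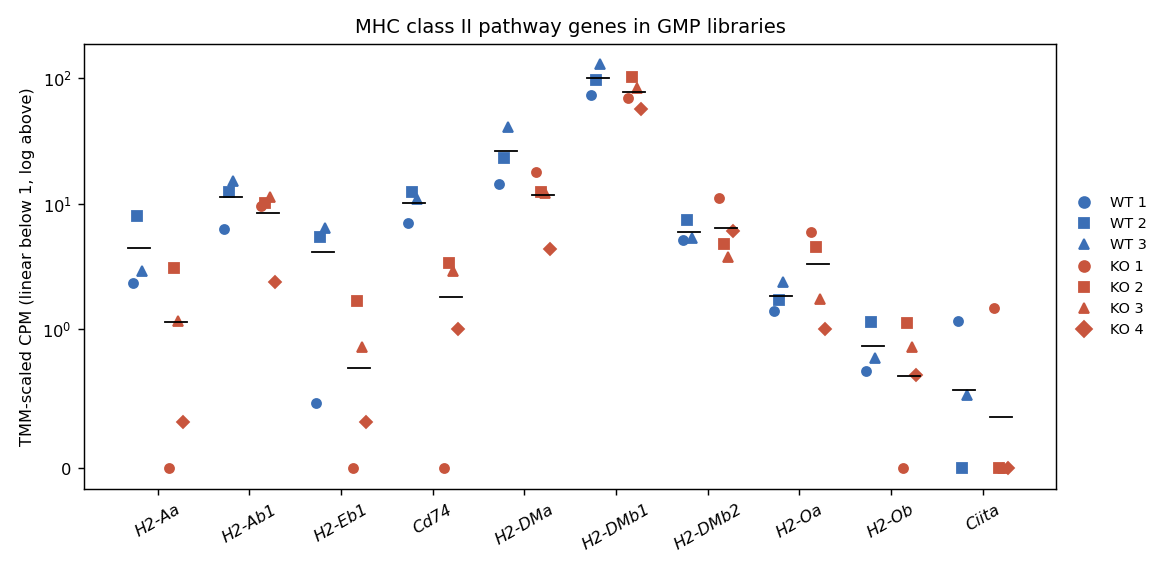
TMM-scaled CPM of the 10 members in each GMP library (axis linear below 1 and log above), WT in blue and KO in red, marker shapes for replicate numbers and a black line at the group's mean. For Cd74 all KO points (0 to 3.359 CPM) lie below all WT points (7.0 to 12.31), while for H2-DMb1 and H2-DMb2 they overlap.

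Other cell types' markers in GMP were read beside these values. The 19 monocyte and macrophage markers summed to 3362 to 4133 CPM in WT and 1853 to 2346 in KO, without overlap. Of the 12 tested, all had a negative value and 7 had an unadjusted p under 0.05, and DESeq2 called 3 of the list. Over all genes tested in GMP, 48.8% had a negative value and 17.9% an unadjusted p under 0.05. DESeq2 called 263 of 18760 genes there. By edgeR 1 of the 12 passed: Ly6c2, a surface protein of inflammatory monocytes, fell from 1192 to 1307 CPM in WT to 597.3 to 648.2 in KO (-1.02 ± 0.198, adjusted p = 0.0178 by edgeR). Lyz2 was at 1367 to 2059 CPM in WT and 406.9 to 1070 in KO (-1.11 ± 0.289, adjusted p = 0.0756 by edgeR). No marker of this list was at 0 in all libraries of a group, and its part in the Cd74 value was not tested.
The 16 dendritic cell markers summed to 526.2 to 577.5 CPM in WT and 455.7 to 700.6 in KO. Of the 5 tested, Tcf4 rose, from 35.89 to 56.0 CPM in WT to 97.65 to 243.2 in KO (1.70 ± 0.324, adjusted p = 0.0162 by edgeR), and 4 had a negative value. Batf3, Cd209a and Clec9a were at 0 in all KO libraries. Of the defining markers of B cells, Faim3 had no count in either group, and Blk and Pou2af1 had none in KO. Immunoglobulin rows took 0.00186% to 0.00376% of the counts. The B and plasma cell list summed to 128.8 to 251 CPM in WT and 127.8 to 175.2 in KO, mostly from Xbp1, a factor of secretory cells in general. For T, NK and innate lymphoid markers the sums were 472.5 to 680.9 in WT and 268 to 561.2 in KO, nearly all Nkg7, and Cd3e, Cd8a and Ncr1 were at 0 throughout.

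Of 13 factors of class II transcription tested in GMP none passed (7 negative, median -0.11, 2 at an unadjusted p under 0.05, 0 called by DESeq2). Over all genes tested in GMP, 17.9% had an unadjusted p under 0.05. Of 8 genes of antigen processing none passed the adjusted threshold by edgeR (5 negative, median -0.03, 2 at an unadjusted p under 0.05, 1 called by DESeq2). Of 12 class I and region neighbours tested 7 had a negative value, with a median of -0.37 and none called. The genes with the GMP pattern nearest to the mean of the 3 classical chains and Cd74, among 8854, were Mrps21 at a root mean square difference of 0.162, Ptafr at 0.274, Fam132a at 0.303, Nsl1 at 0.32, Trip6 at 0.335, C1rl at 0.349, Atp5l at 0.354 and App at 0.357. None of them was among those nearest in LSK. The members' mean rests on few counts in these libraries, which limits this measure.

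CFU-E libraries, of the same kit as GMP, held still fewer class II counts. Without TMM scaling, H2-DMb1 was at 93.0 CPM over GMP WT (exact Poisson 95% interval 87.7 to 98.6) and at 8.26 over CFU-E WT (6.79 to 9.97). Cd74 was at 9.28 in GMP WT and 1.06 in CFU-E WT (0.58 to 1.78) and H2-Ab1 at 10.3 and 5.99 (4.74 to 7.46). Of the 10 members 3 could be tested in CFU-E and none passed by edgeR, by DESeq2 or at an unadjusted p under 0.05. Of 10170 genes 1.06% passed by edgeR and 9.82% had an unadjusted p under 0.05. H2-Ab1 was at 5.166 to 6.792 CPM in WT and 3.979 to 10.81 in KO (0.16 ± 0.425, adjusted p = 0.946 by edgeR). H2-DMa was at 7.983 to 11.59 CPM in WT and 6.298 to 14.53 in KO (-0.30 ± 0.316, adjusted p = 0.833 by edgeR), and H2-DMb1 at 5.931 to 9.627 in WT and 7.427 to 21.80 in KO (0.46 ± 0.454, adjusted p = 0.818 by edgeR). In all 3 the groups overlapped. These libraries were run on 2 flow cells, here A and B, and within A alone (1 KO and 2 WT libraries) the values were -0.26 for H2-Ab1 and -0.32 for H2-DMb1. Within B alone (3 KO libraries and 1 WT) they were 0.52 and 1.22, and none of these passed. Cd74 had 14 counts over CFU-E WT and 16 over KO, H2-Aa 1 and 10, and H2-Eb1 15 and 17.

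The difference between GMP and LSK in the effect of KO was tested as an interaction. None of the 10 members passed and none had an unadjusted p under 0.05 by edgeR. Of 16288 genes 0% passed and 10.6% had an unadjusted p under 0.05. Of the 10, the 5 with too few counts for the test in GMP (H2-Aa, H2-Eb1, Ciita, H2-Oa and H2-Ob) entered through their LSK counts, so their differences are poorly measured. For Ciita, with 7 counts in GMP WT and 2 in KO, the SE was 1.596. Of all genes, 9969 could be tested in GMP alone. For Cd74 the difference was -1.62 ± 0.957 (unadjusted p = 0.109, adjusted p = 0.544 by edgeR). The smallest p was that of H2-DMb2, with a difference of 1.27 (unadjusted p = 0.0536, adjusted p = 0.471 by edgeR), followed by H2-DMa with -0.94 (unadjusted p = 0.0617, adjusted p = 0.481 by edgeR). So the call of Cd74 in GMP and its absence in LSK do not show that the populations differ.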

How the data were processed

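RNA was sequenced from 21 libraries of sorted marrow cells. The authors deposited raw whole-number counts by gene, made with STAR 2.4 and HTSeq 0.6.1 on build mm9, per the submitters' processing notes, which also list DESeq2. Annotation, strand setting and the handling of reads that fit several genes are not stated there. LSK libraries were made with SMARTer and the others as 3′ libraries with SMART-Seq2, per the labels' protocols. The labels do not say whether replicates came from separate mice, so p-values measure only how these libraries spread, which may be technical. No 2 libraries of a group agreed within sampling noise (chi-square per degree of freedom at least 4.03).

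Each population was fitted on all its genes with edgeR 4.0.16 in R 4.3.3: filterByExpr (minimum count 10, total 15), TMM scaling, glmQLFit with the quasi-likelihood F test, and a threshold of 0.05 on Benjamini-Hochberg adjusted p, with the flow cell named in the descriptions as a term for CFU-E. The filter left 10 LSK, 5 GMP and 3 CFU-E members. Alternatives used DESeq2 1.42.0, limma 3.58.1 (voom with sample weights, added after seeing the data), other filters, other scaling and left-out libraries. The fits were tested on simulated data. The members and gene lists were chosen with earlier results of these data known. Of the other pathway lists, genes past the threshold are named, or else those with the smallest p in LSK; of the marker lists, those with the highest level. Some genes that these rules select are not reported here. Listed symbols that the table does not hold under that name were not analysed here. Promoters and gene order are from RefSeq tables of GRCm38.p6, and no coordinates of the files' own build were used. Poisson intervals and limits for a count of 0 (3 counts) cover counting error only.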

Additional observations from a re-analysis of the deposited data

Results flagged for a closer look

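In groups of 4 libraries, a value was singled out where 1 library stood apart from the others by Dixon's 95% criterion, which chance meets in about 1 of 20 groups. Of 30 groups of 4 (10 members in LSK WT, GMP KO and CFU-E KO), 2 met it, where chance would give 1.5. In both, the gene was Ciita, at 1.479 CPM in the library labelled GMP KO 1 and 0 in the other GMP KO libraries, and at 0.4114 CPM in CFU-E KO 3 and 0 in the other CFU-E KO libraries. Each value rests on 2 counts.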

How the results depend on the processing

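Of the settings tried, none gave a member a positive value in LSK other than the removal of WT 2 and WT 4 (H2-Oa 0.15, H2-Ob 0.30). The members' median in LSK kept its sign, from -1.0 to -0.51 with 1 library left out, -0.34 without WT 2 and WT 4, -0.36 with the number in the description as a term and -0.46 with the replicate block, against -0.71. Members called in LSK were 1 with DESeq2 and 0 to 1 with 1 library left out, against 0. In GMP they were 3 with no filter, 2 with voom weights, 0 when thinned, 0 without KO 1 and KO 4, and 0 to 1 with 1 library left out, against 1. H2-DMb2 in GMP changed sign, to -0.02 with no filter, -0.45 without KO 1 and KO 4, -0.45 with voom weights and -0.28 to 0.21 with 1 library left out. In CFU-E, H2-Ab1 and H2-DMb1 were -0.26 and -0.32 within flow cell A, 0.52 and 1.22 on flow cell B alone, and -0.25 to 0.52 and -0.30 to 1.22 with 1 library left out.

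Genes called in LSK (14) were 338 with DESeq2, 38 with no filter, 8 at a mean of 5 CPM, 1 without WT 2 and WT 4, 6 with the number in the description as a term, 22 with voom weights, and 0 to 123 with 1 library left out. In GMP (145) they were 263 with DESeq2, 601 with no filter, 63 when thinned, 1264 with voom weights and 38 to 211 with 1 library left out. In CFU-E (108) they were 164 with DESeq2, 333 with no filter, 234 with no flow cell term and 22 to 143 with 1 library left out. For the interaction (0) they were 0 to 8 with 1 library left out. The cause was not tested.

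The replicate numbers are not stated to pair libraries. Same-numbered KO and WT libraries deviated together by r of 0.085, 0.047 and 0.035 in LSK, -0.164, 0.175 and 0.252 in GMP and 0.199, 0.271 and -0.194 in CFU-E, and not every library correlated best with its own number. With the replicate block, 0 genes were called in LSK, 325 for GMP and 31 for CFU-E. No member's call changed with it: Cd74 in GMP was -2.15 (adjusted p = 0.0048 by edgeR), while H2-DMb2 in GMP turned to -0.02.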

Other observations

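Proportions between partner genes of the pathway, chosen after the values were seen and not tested, differed between populations of the same 3′ kit. H2-DMa and H2-DMb1 encode the partner chains of H2-DM. The count of H2-DMa was 0.192 to 0.317 times that of H2-DMb1 in GMP WT libraries and 0.0774 to 0.255 times in GMP KO, but 0.83 to 1.95 times in CFU-E WT and 0.667 to 1.18 times in CFU-E KO. GMP and CFU-E libraries did not overlap in this ratio. In LSK, with its full-transcript kit, the ratio was 1.69 to 3.63.

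The count of Cd74, the invariant chain, was 0.719 to 1.11 times that of H2-Ab1 in GMP WT and 0 to 0.429 times in GMP KO, so the genotypes did not overlap. In CFU-E it was 0.0909 to 0.227 times in WT and 0.0784 to 0.133 times in KO. The GMP KO values rest on 0 to 12 counts of Cd74 and 7 to 39 of H2-Ab1 in a library.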
